A study of Homo sapiens with 20 samples.

Results

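NFKBIA knockdown was compared with no treatment in non-irradiated U2OS cells, a human osteosarcoma line. The comparison used the 5 samples labelled as NFKBIA knockdown and the 5 labelled as untreated, 10 of the 20 samples of the series, and every gene of the deposited counts table. It asks which transcripts differ when the NFKBIA transcript is lowered by an shRNA in cells that received no radiation. The other 10 samples were harvested 90 minutes or 7 days after 20 Gy, 5 at each time. All 20 entered the same fit, and the 7 days samples were used as a contrast.

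Total RNA was extracted with Trizol from cells grown in DMEM with FCS, and the libraries, stranded according to the study's methods, were sequenced on an Illumina instrument. The untreated samples carry no further label, and the knockdown samples are labelled by the knockdown alone. The study's methods describe lentiviral shRNA vectors (pTRIPz and pGIPZ), clonal selection in puromycin and induction of the shRNA by doxycycline. The labels name neither the vector nor doxycycline for either group, and 0 of the 20 samples is labelled as a scrambled shRNA control, although the methods name doxycycline-treated cells with scrambled shRNAs as the controls. Effects of the vector, of clone, of selection and of doxycycline therefore cannot be told apart from those of the knockdown. Sequencing lane cannot be told apart either. Untreated samples 1 to 4 ran in lane 2 and untreated sample 5 in lane 3, whereas knockdown sample 1 ran in lane 5 and knockdown samples 2 to 5 in lane 6. The labels number the samples of a group from 1 to 5. The study describes its RNA-seq samples as quintuplicates and as biological replicates, and the sources used here do not say whether each was a separate culture. The p-values measure the spread between samples within groups, for which all 4 groups of the series share 1 estimate.

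Reads counted on genes ranged from 22535659 in untreated sample 5 to 40390961 in untreated sample 3, and from 26693224 to 33461262 in the knockdown samples. The untreated samples differed from each other more than the knockdown samples did. Their median coefficient of variation over the genes tested was 15.5%, against 5.15% with the knockdown. Untreated sample 5 stood farthest apart. The chi-square per gene between its counts and those of another untreated sample was 97.7 to 159, against 25.7 to 73.3 between untreated sample 4 and samples 1 to 3, 11.4 to 26.9 among untreated samples 1 to 3 and 1.79 to 8.25 among the knockdown samples. It also held transcripts of lymphocytes that were at 0 in the other 4 untreated samples. CD3E and CD3G, which encode chains of the T cell receptor complex, were at 0.571 and 0.19 CPM in it, CD2 at 0.143 and NKG7 at 0.238 CPM. CPM is edgeR's unit for counts scaled by library size and TMM factors. GZMB, a protease of cytotoxic lymphocytes, was at 1.76 CPM in untreated sample 5 and at most 0.0830 CPM in each of the other 9 samples. The part of these transcripts in the results was not tested.

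NF-κB is a family of dimeric transcription factors that switch on genes of inflammation, immunity and cell survival. In resting cells IκBα, the protein made from NFKBIA, holds the dimers in the cytoplasm. Signals that activate the IκB kinase (IKK) have it destroyed, and the freed dimers then induce NFKBIA again, which ends the response. Related inhibitors, IκBβ and IκBε, and the ubiquitin editor A20 (TNFAIP3) restrain the same pathway.

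NFKBIA (ENSG00000100906) was at 28.6, 23.5, 27.4, 35 and 42 CPM in untreated samples 1 to 5 and 13, 11.2, 12.1, 11.9 and 12.4 CPM in knockdown samples 1 to 5. Every knockdown sample lay below every untreated sample, and the knockdown samples lay close together, whereas untreated samples 4 and 5 were the highest. The mean fell from 31.3 ± 7.25 to 12.2 ± 0.667 CPM (mean ± SD, n = 5 samples in each group), or from 13.2 to 5.12 CPM per kb (kilobase of exon). The log2 fold change, with its standard error (SE), was -1.36 (SE 0.110, edgeR's quasi-likelihood test, Benjamini-Hochberg adjusted p = 4.87e-09), and an exact permutation test of log2 CPM gave a two-sided p of 0.00794, the smallest that 5 samples against 5 can give. With each sample left out in turn it lay between -1.44 and -1.25, and without untreated samples 4 and 5, which was chosen after seeing the data, it was -1.14. In bulk RNA, fewer cells that express a gene and less of its RNA per cell cannot be told apart.

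The κB consensus, the sequence that NF-κB dimers bind, was searched on both strands of the 300 bases around gene starts in RefSeq on GRCh38.p14, 250 before and 50 after the start. It was found in 10.8% of all 27305 promoters in the table, in 12.9% of the 11742 genes tested that had a promoter there, in 11% of 566 genes higher with the knockdown and in 14% of 850 lower. Among 39 promoters of a list of known NF-κB targets the share was 46.2%. These matches are a description of letters and not a record of binding. The promoters of NFKBIA (chr14:35404700-35404999, minus strand), TNFAIP3 (chr6:137867009-137867308, plus strand), BIRC3 (chr11:102317234-102317533, plus strand) and CFB (chr6:31945845-31946144, plus strand) are shown, as they belong to targets that moved in opposite directions. Capitals mark the κB matches:
NFKBIA: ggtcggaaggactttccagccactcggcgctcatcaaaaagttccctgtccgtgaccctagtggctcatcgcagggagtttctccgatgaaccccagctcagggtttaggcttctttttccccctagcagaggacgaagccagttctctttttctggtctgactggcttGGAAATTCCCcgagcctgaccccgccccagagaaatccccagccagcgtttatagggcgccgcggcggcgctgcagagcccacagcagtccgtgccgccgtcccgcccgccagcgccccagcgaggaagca
TNFAIP3: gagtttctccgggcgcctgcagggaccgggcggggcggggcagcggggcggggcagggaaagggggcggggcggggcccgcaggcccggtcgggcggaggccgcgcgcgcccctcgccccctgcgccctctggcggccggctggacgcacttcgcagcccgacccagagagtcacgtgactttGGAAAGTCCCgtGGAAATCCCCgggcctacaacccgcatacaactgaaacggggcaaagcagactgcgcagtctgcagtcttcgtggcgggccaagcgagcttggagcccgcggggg
BIRC3: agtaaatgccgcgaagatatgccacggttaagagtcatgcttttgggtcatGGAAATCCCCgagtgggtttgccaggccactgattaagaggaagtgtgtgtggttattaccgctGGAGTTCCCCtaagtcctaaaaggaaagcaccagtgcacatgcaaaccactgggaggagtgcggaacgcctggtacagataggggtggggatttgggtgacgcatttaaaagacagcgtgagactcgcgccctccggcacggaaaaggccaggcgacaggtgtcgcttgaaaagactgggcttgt
CFB: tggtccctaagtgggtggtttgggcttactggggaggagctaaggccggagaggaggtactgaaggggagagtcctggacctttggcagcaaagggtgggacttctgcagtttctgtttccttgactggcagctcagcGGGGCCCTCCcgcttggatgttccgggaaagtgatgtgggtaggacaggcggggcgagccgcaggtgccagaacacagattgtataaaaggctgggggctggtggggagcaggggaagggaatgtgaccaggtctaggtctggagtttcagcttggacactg
The first 3 genes fell with the knockdown and CFB rose. The match in NFKBIA begins 81 bases before the start, those in TNFAIP3 67 and 55, those in BIRC3 199 and 135, and the match in CFB 112 bases before it.

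**Figure D1:**
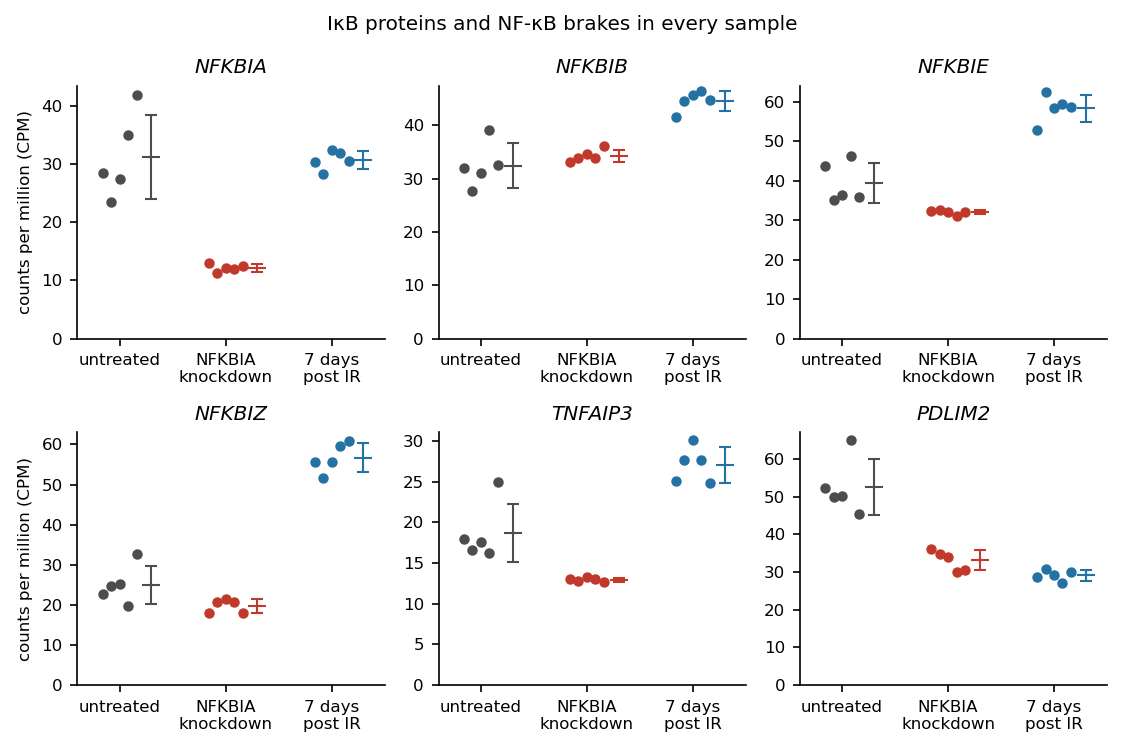
Normalised read counts (CPM) of NFKBIA, NFKBIB, NFKBIE, NFKBIZ, TNFAIP3 and PDLIM2 in each untreated, NFKBIA knockdown and 7 days post IR sample; bars give the mean and SD of 5 samples. NFKBIA is at 12.2 ± 0.667 CPM with the knockdown, below all untreated samples, and at 30.8 ± 1.59 CPM 7 days after irradiation.

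The other inhibitors of the pathway did not rise. Of 18 genes for IκB proteins and other brakes that could be tested, 0 were called higher (0 with DESeq2, 0 at an unadjusted edgeR p under 0.05 with any fold) and 3 lower. Their median log2 fold change was -0.22 against -0.01 over all 14992 genes tested. A gene was called when its log2 fold change exceeded 0.5 in size and its adjusted p was under 0.05. By this rule 5.18% of the genes tested were higher and 7.53% lower. Beside NFKBIA, the genes that fell were PDLIM2, whose product targets RELA for degradation, and TNFAIP3. PDLIM2 fell from 52.6 ± 7.43 to 33.1 ± 2.66 CPM, with a log2 fold change of -0.67 (SE 0.079, edgeR's quasi-likelihood test, Benjamini-Hochberg adjusted p = 1.06e-06) and all 5 knockdown samples below all 5 untreated samples. It shares exons with ENSG00000248235 on the same strand. TNFAIP3, which encodes A20, was at 17.9, 16.6, 17.6, 16.3 and 25 CPM in untreated samples 1 to 5 and 13, 12.8, 13.2, 13 and 12.6 CPM in knockdown samples 1 to 5. Each knockdown sample was lower, and untreated sample 5 was far above the rest. Its log2 fold change was -0.52 (SE 0.096, edgeR's quasi-likelihood test, Benjamini-Hochberg adjusted p = 0.000204), and without untreated sample 5 it was -0.42 and not called. Nor was it called with upper-quartile factors (-0.49) or library size alone (-0.46).

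The remaining IκB genes stayed under the threshold. NFKBIE, for IκBε, was at 39.5 ± 5.10 CPM in untreated cells and at 32 ± 0.512 CPM with the knockdown, without overlap between the groups (log2 fold change -0.30). NFKBIB, for IκBβ, was at 32.5 ± 4.16 and 34.3 ± 1.15 CPM (log2 fold change 0.08, with overlapping groups). Its exons overlap SIRT2 on the other strand. NFKBIZ, for the nuclear protein IκBζ, was at 25 ± 4.78 and 19.7 ± 1.64 CPM (log2 fold change -0.34, overlapping). BCL3, a nuclear IκB protein that acts with p50 and p52 dimers, was at 28, 28.8, 28.4, 30.3 and 69 CPM in untreated samples 1 to 5 and 25.7, 27.9, 25.5, 26.7 and 26.9 CPM in knockdown samples 1 to 5. Untreated sample 5 lay far above the other 4, and the log2 fold change was -0.46, or -0.14 without that sample. It was not called, but it was when any other untreated sample was left out (from -0.55 to -0.54). Per length, NFKBIA went from an abundance like that of NFKBIB and NFKBIE in untreated cells (13.2, 14 and 15.5 CPM per kb) to less than either of them with the knockdown (5.12, 14.8 and 12.5).

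Of the 5 NF-κB subunits 0 were called higher (0 with DESeq2, 1 at an unadjusted edgeR p under 0.05 with any fold) and 1 lower. Their median log2 fold change was -0.20, or 0.00 without untreated sample 5. RELB, the subunit of the non-canonical pathway, was at 33.3, 31.6, 31.7, 39.3 and 18.9 CPM in untreated samples 1 to 5 and 22.4, 21.4, 21, 22.6 and 21.7 CPM in knockdown samples 1 to 5. The groups overlapped, and its log2 fold change was -0.51 (SE 0.119, edgeR's quasi-likelihood test, Benjamini-Hochberg adjusted p = 0.00181). That call stood close to the threshold. It was not made without untreated sample 1 (-0.48), untreated sample 4 (-0.43), knockdown sample 2 (-0.50) or knockdown sample 3 (-0.49), nor with upper-quartile factors (-0.49) or library size alone (-0.46). Nor was it made with the replicate block (-0.50), which pairs samples by number, or with the sequencing lane as a factor, where the sign turned (0.22). RELA, which encodes p65, was at 117, 116, 121, 115 and 216 CPM in untreated samples 1 to 5 and 120.0, 122, 120.1, 115 and 117 CPM in knockdown samples 1 to 5. Untreated sample 5 alone was high, and the log2 fold change of -0.20 became 0.00 without it. NFKB1 had a log2 fold change of -0.09 and NFKB2, for the precursor of p52, 0.11, both not called. REL had -0.32, or 0.10 without untreated sample 5, likewise not called, whereas it was called without untreated sample 4 (-0.53).

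Across all genes, 777 were higher and 1129 lower with the knockdown, so that 40.8% of the called genes were higher. Most changes were moderate. The log2 fold change exceeded 1 for 217 of the higher genes and was under -1 for 307 of the lower, and 44 and 51 passed 2 and -2. The higher genes were mostly scarce transcripts, with a median of 2.48 CPM in untreated cells, against 12.6 CPM for the lower genes and 29.5 CPM for all genes tested. The samples of the groups did not overlap for 608 of the higher and 854 of the lower genes, and for 24.1% of all genes tested. With library size alone in place of TMM factors, 971 genes were higher and 924 lower, and the share of higher genes was 51.2%. A fit of only the groups compared called 684 higher and 958 lower. Without untreated sample 5 the counts were 759 and 1039, and without untreated samples 4 and 5 they were 724 and 1064. With the sequencing lane as a factor they were 1994 and 2094. Of the 777 and 1129 called without the factor, 312 and 647 were called in the same direction with it, and 1 gene was called in opposite directions.

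**Figure D2:**
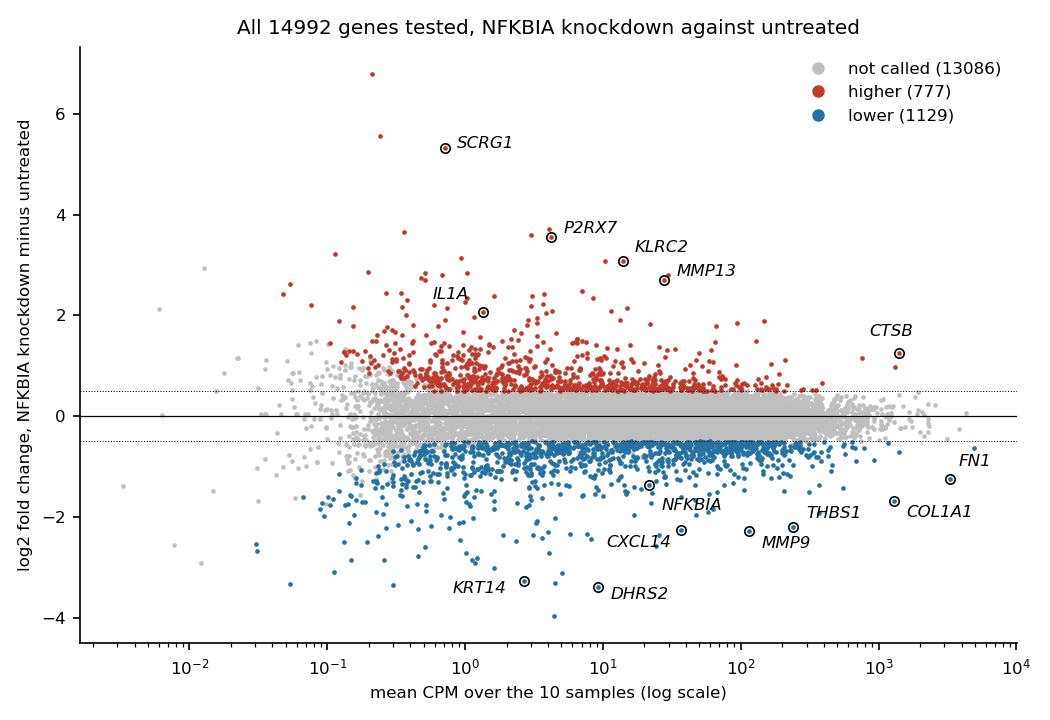
Log2 fold change, NFKBIA knockdown minus untreated, against the mean CPM of both groups (log axis) for the 14992 genes tested; dotted lines mark log2 fold changes of 0.5 and -0.5. The 777 higher genes spread to larger changes at low counts, and NFKBIA lies at -1.36 among the 1129 lower genes.

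Genes that NF-κB is known to induce moved both ways, and more of them fell than rose. Of 55 tested targets in a list from general knowledge, 6 were higher (IL1A, CFB, IRAK2, TNFAIP2, CXCL8 and PSMB9) and 12 lower, with a median log2 fold change of -0.14 (-0.09 without untreated sample 5). The 12 include NFKBIA itself, the transcript that the shRNA lowers. Of the 55, 10.9% were higher and 21.8% lower, against 5.18% and 7.53% of all genes tested. The samples did not overlap for 23 of the 55, against 24.1% of all genes tested. These shares over all genes tested are the background for every list that follows. A gene that belongs to several lists counts in each of them. IL1A, the cytokine interleukin-1α, was at 0.445, 0.581, 0.50, 0.725 and 0.238 CPM in untreated samples 1 to 5 and 1.71, 1.43, 2.63, 2.42 and 2.76 CPM in knockdown samples 1 to 5. Knockdown samples were all higher, at a low level, and the log2 fold change was 2.08 (SE 0.218, edgeR's quasi-likelihood test, Benjamini-Hochberg adjusted p = 2.01e-07). CFB, complement factor B of the alternative pathway, rose from 3.26 ± 0.699 to 9.18 ± 0.884 CPM, with a log2 fold change of 1.47 (SE 0.111, edgeR's quasi-likelihood test, Benjamini-Hochberg adjusted p = 1.85e-09) and no overlap. Its exons overlap those of C2 on the same strand. IRAK2, a kinase of interleukin-1 receptor signalling, had a log2 fold change of 0.92, and TNFAIP2, a gene induced by TNF, 0.72, both without overlap.

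Among the targets that fell, MMP9, the gelatinase of matrix turnover, had the largest change. It was at 188, 196, 177, 195 and 202 CPM in untreated samples 1 to 5 and 38.2, 44.2, 36, 40.3 and 38.3 CPM in knockdown samples 1 to 5. All knockdown samples were far below all untreated samples, and the log2 fold change was -2.28 (SE 0.060, edgeR's quasi-likelihood test, Benjamini-Hochberg adjusted p = 1.10e-16). CCL2, a chemokine for monocytes, was at 39.7, 31.8, 33.8, 42.7 and 49.5 CPM in untreated samples 1 to 5 and 16.7, 16.4, 17.7, 17.4 and 18 CPM in knockdown samples 1 to 5. It fell in all 5 knockdown samples, with a log2 fold change of -1.19 (SE 0.112, edgeR's quasi-likelihood test, Benjamini-Hochberg adjusted p = 4.42e-08). BIRC3, which encodes the survival factor cIAP2, was at 38.4, 30.4, 27, 29.2 and 34.8 CPM in untreated samples 1 to 5 and 18.9, 17.9, 19.9, 22.2 and 17.9 CPM in knockdown samples 1 to 5. The groups did not overlap, and the log2 fold change was -0.72 (SE 0.084, edgeR's quasi-likelihood test, Benjamini-Hochberg adjusted p = 8.45e-07). F3, which encodes tissue factor, had a log2 fold change of -0.66, and the stress factor ATF3 -0.62, both without overlap. The adhesion molecule ICAM1 had -0.64 with overlapping groups, and it was not called in a fit of only the groups compared (-0.64). Of the 6 higher targets, 1 of 6 promoters held a κB match, and of the lower targets 5 of 8 promoters. The latter were NFKBIA, TNFAIP3, BIRC3, LCN2 and GADD45B, of which the last 2 were named after their values were seen. NFKBIA is the transcript that the shRNA lowers. The promoters of ICAM1, F3 and ATF3 were searched and held no match. The remaining lower targets, MMP9, RELB and CCL2 among them, had no promoter among those searched. Over the whole target list the share with a match was 46.2%.

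Of 30 tested genes of the IKK complex and its upstream regulators, 1 was higher and 1 lower (3.33% each, against 5.18% and 7.53% of all genes tested), and the median log2 fold change was 0.07 (0.03 without untreated sample 5). Without untreated sample 1 or untreated sample 4, 2 were lower. TNFRSF1B, the TNF receptor TNFR2, was the higher gene, at 0.396 and 0.702 CPM. Its log2 fold change was 0.96 (SE 0.269, edgeR's quasi-likelihood test, Benjamini-Hochberg adjusted p = 0.00701), with overlapping groups, as untreated sample 5 lay above all 5 knockdown samples. The lower gene was BIRC3.

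Secreted cytokines and chemokines split as well. Of 19 tested genes of the interleukin-1 family and the chemokines, 4 were higher (IL1A, CCL26, CXCL12 and CXCL8) and 2 lower (CXCL14 and CCL2), with a median log2 fold change of -0.11. That median lay between -0.21 and -0.17 when any 1 of untreated samples 1 to 4 or knockdown samples 1, 4 or 5 was left out, and without untreated sample 4 there were 4 lower genes. CXCL14, a chemokine made by epithelia, was at 65.8, 50.8, 49.4, 50.7 and 87.8 CPM in untreated samples 1 to 5 and 15.1, 11.2, 11.9, 12.8 and 12 CPM in knockdown samples 1 to 5. It fell in every knockdown sample, with a log2 fold change of -2.27 (SE 0.140, edgeR's quasi-likelihood test, Benjamini-Hochberg adjusted p = 9.24e-11). Its exons overlap SLC25A48 on the other strand. CCL26, an eosinophil attractant, rose from 4.53 ± 1.28 to 10.7 ± 0.746 CPM, with a log2 fold change of 1.26 (SE 0.154, edgeR's quasi-likelihood test, Benjamini-Hochberg adjusted p = 1.57e-06) and no overlap. CXCL12, the ligand of CXCR4, rose from 1.32 ± 0.417 to 3.20 ± 0.369 CPM, with a log2 fold change of 1.23 and no overlap. CXCL8, the neutrophil attractant interleukin-8, was at 5.79, 4.40, 4.18, 4.88 and 2.71 CPM in untreated samples 1 to 5 and 6.59, 6.55, 7.32, 5.46 and 7.90 CPM in knockdown samples 1 to 5. The groups overlapped, and its log2 fold change was 0.60 (SE 0.150, edgeR's quasi-likelihood test, Benjamini-Hochberg adjusted p = 0.00300). Without untreated sample 5 it was 0.48 and not called.

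Several inflammatory cytokines stood at low levels in both groups and were not called. IL6 was at 0.317 ± 0.242 and 0.261 ± 0.156 CPM, TNF at 0.191 ± 0.119 and 0.172 ± 0.0436, CCL20, which attracts CCR6-bearing cells, at 1.73 ± 0.407 and 1.61 ± 0.237, and the neutrophil attractant CXCL3 at 0.590 ± 0.142 and 0.649 ± 0.198 CPM. Their log2 fold changes were -0.14, -0.02, -0.08 and 0.16, all with overlapping groups. The sign for IL6, TNF and CCL20 turned when single samples were left out. In the IL-6 family 1 of 17 tested genes was higher and 0 lower (0 with DESeq2, 2 at an unadjusted edgeR p under 0.05 with any fold), with a median of 0.05. The median was -0.01 without untreated sample 4, 0.14 without untreated sample 5 and 0.09 without knockdown sample 3, and 2 genes were higher without untreated sample 1, untreated sample 5 or knockdown sample 2. The higher gene was IL6R, the receptor chain for IL-6, with a log2 fold change of 0.55, which was not called without untreated sample 4 (0.44) or knockdown sample 3 (0.48).

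The senescence-associated secretory phenotype (SASP) is the mix of cytokines, proteases and growth factors that senescent cells release. Of 39 tested factors of a list that the study took from earlier work, 9 were higher and 6 lower with the knockdown. These are 23.1% and 15.4%, against 5.18% and 7.53% of all genes tested, and the median log2 fold change was 0.16. The 39 do not include CXCL8 (0.60) and MMP1 (not called), which the paper counts as SASP factors, or CCL2 (-1.19). MMP13, a collagenase, was at 7.87, 6.61, 6.30, 6.72 and 9.85 CPM in untreated samples 1 to 5 and 42.8, 46.5, 44.7, 54.3 and 52 CPM in knockdown samples 1 to 5. The knockdown samples lay well above the untreated samples, with a log2 fold change of 2.70 (SE 0.117, edgeR's quasi-likelihood test, Benjamini-Hochberg adjusted p = 4.68e-13). EREG, a ligand of the EGF receptor, rose from 3.48 ± 0.777 to 9.56 ± 2.04 CPM, with a log2 fold change of 1.45. CTSB, the lysosomal protease cathepsin B, rose from 825 ± 107 to 1968 ± 138 CPM, with a log2 fold change of 1.25 (SE 0.075, edgeR's quasi-likelihood test, Benjamini-Hochberg adjusted p = 6.04e-11). Neither gene's groups overlapped. Other SASP factors fell. IGFBP7, which binds insulin-like growth factors, was at 80.2, 71.3, 74.2, 89.7 and 62.4 CPM in untreated samples 1 to 5 and 19.2, 17.4, 19.4, 20.4 and 20.2 CPM in knockdown samples 1 to 5, a log2 fold change of -1.97 (SE 0.079, edgeR's quasi-likelihood test, Benjamini-Hochberg adjusted p = 1.59e-13) with all 5 knockdown samples lower. Its exons overlap POLR2B on the other strand. Fibronectin (FN1) had a log2 fold change of -1.24 and TNFRSF11B, the decoy receptor osteoprotegerin, -0.71, both without overlap.

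Among the metalloproteinases and their inhibitors 2 of 17 tested genes were higher (MMP13 and MMP17) and 4 lower (MMP9, MMP7, TIMP3 and MMP24), with a median log2 fold change of -0.15. TIMP3, a matrix-bound inhibitor of metalloproteinases, fell from 94.3 ± 10.7 to 56.8 ± 4.28 CPM, with a log2 fold change of -0.73 (SE 0.071, edgeR's quasi-likelihood test, Benjamini-Hochberg adjusted p = 7.05e-08) and all 5 knockdown samples lower. The membrane-type MMP17 had 0.59 and MMP24 -0.72. MMP7, matrilysin, was scarce, at 0.404 and 0.104 CPM (log2 fold change -1.94). TIMP1, the most abundant of the list, had -0.21, and MMP3, stromelysin 1, was at 0.196 ± 0.156 and 0.381 ± 0.151 CPM. Neither was called, and both overlapped between the groups. MMP3 was called with DESeq2 (0.92) and without untreated sample 4 (1.32). Per length, MMP9 stood at 82 CPM per kb in untreated cells against 2.64 for MMP13, and with the knockdown they stood at 16.87 and 16.95 CPM per kb.

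Complement genes were among those that rose most often. Complement is a cascade of plasma proteins that tags and lyses cells. Of 27 tested genes 11 were higher and 2 lower, or 40.7% and 7.41% against 5.18% and 7.53% of all genes tested. Their median log2 fold change was 0.32. The regulator factor I (CFI), a protease that inactivates C3b, was at 0.920, 1.83, 0.976, 0.956 and 0.523 CPM in untreated samples 1 to 5 and 3.53, 4.40, 5.02, 6.41 and 5.31 CPM in knockdown samples 1 to 5. Its groups did not overlap, and the log2 fold change was 2.18 (SE 0.199, edgeR's quasi-likelihood test, Benjamini-Hochberg adjusted p = 3.00e-08). C4B, a component of the classical pathway, was at 1.16, 1.66, 1.13, 1.19 and 0.761 CPM in untreated samples 1 to 5 and 4.53, 4.37, 4.69, 4.95 and 4.29 CPM in knockdown samples 1 to 5, again without overlap, with a log2 fold change of 1.92 (SE 0.161, edgeR's quasi-likelihood test, Benjamini-Hochberg adjusted p = 8.95e-09). Its near-identical paralog C4A, with 1.64, can share reads with it, and C2, with 1.60, shares exons with CFB. C4A, C2 and the central component C3 were named after their values were seen. C3 was at 1.70 ± 0.322 and 2.16 ± 0.383 CPM (log2 fold change 0.32, not called). C7, a part of the membrane attack complex, fell from 0.798 ± 0.130 to 0.246 ± 0.148 CPM (log2 fold change -1.76, no overlap), and CFP, the stabiliser properdin, from 0.647 ± 0.187 to 0.369 ± 0.105 CPM (-0.84, with overlap). C5AR2, a receptor of C5a, was counted 32 times with the knockdown and 3 times in untreated cells over 5 samples each, a ratio of 11.4 after scaling by raw library size, without TMM factors (95% counting interval 3.58 to 58.4). Its fitted log2 fold change moved from 3.22 to 4.17 without untreated sample 1. Clusterin (CLU), the most abundant member, had -0.21 and was not called.

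**Figure D3:**
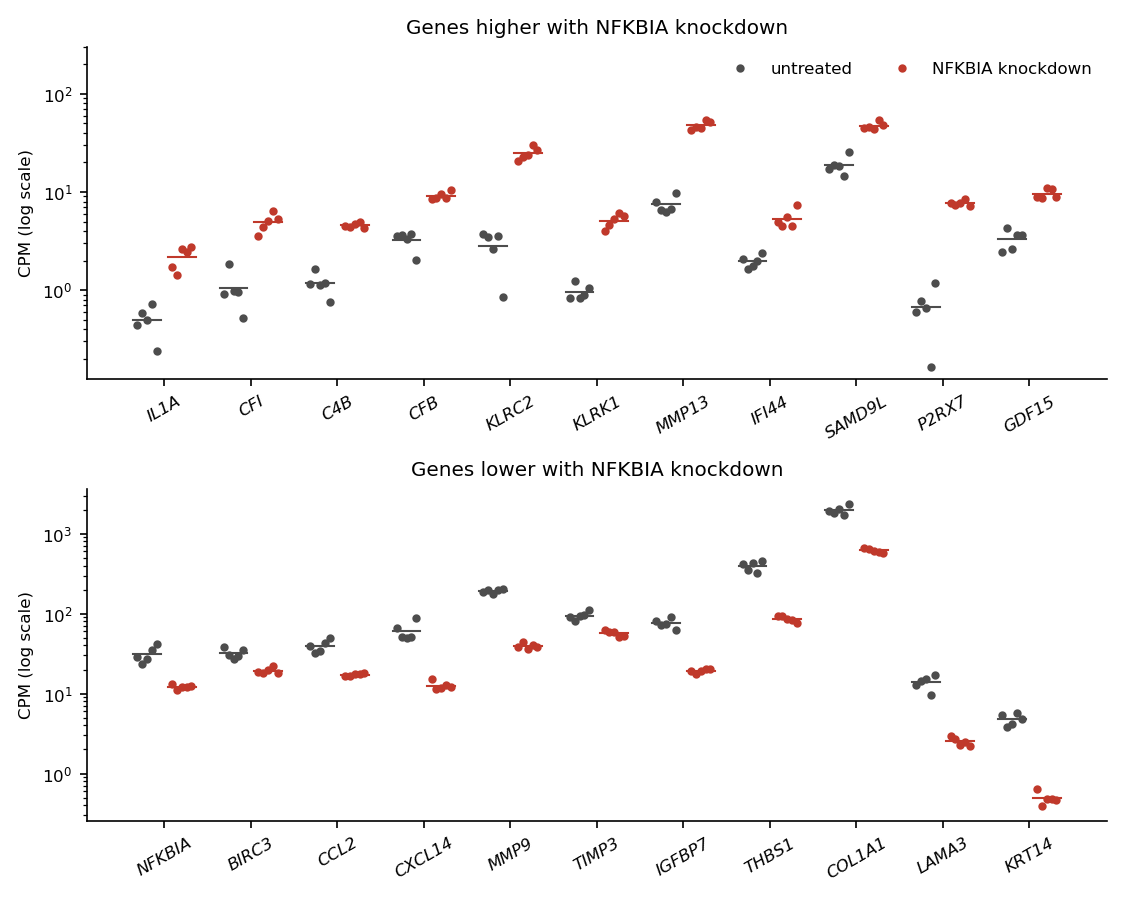
CPM (log axis) of 11 genes that rose and 11 genes that fell, 1 point a sample, untreated and NFKBIA knockdown; lines mark group means. The groups do not overlap for any of the 22 genes; KLRC2 goes from 2.84 ± 1.19 to 24.9 ± 3.57 CPM and MMP9 from 191 ± 9.63 to 39.4 ± 3.11 CPM.

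A group of lectin-like receptor genes named for natural killer cells rose together. Of 9 tested natural killer receptor genes 6 were higher and 0 lower (0 with DESeq2, 0 at an unadjusted edgeR p under 0.05 with any fold), with a median log2 fold change of 0.81. KLRC2 (ENSG00000205809), which encodes NKG2C, was at 3.74, 3.49, 2.60, 3.53 and 0.856 CPM in untreated samples 1 to 5 and 20.9, 22.9, 23.9, 30.1 and 26.8 CPM in knockdown samples 1 to 5. All 5 knockdown samples were far above the untreated samples, with a log2 fold change of 3.09 (SE 0.208, edgeR's quasi-likelihood test, Benjamini-Hochberg adjusted p = 3.56e-10). KLRK1, which encodes the receptor NKG2D, was at 0.831, 1.25, 0.826, 0.890 and 1.05 CPM in untreated samples 1 to 5 and 3.97, 4.58, 5.26, 6.05 and 5.63 CPM in knockdown samples 1 to 5, also without overlap, and its log2 fold change was 2.39 (SE 0.207, edgeR's quasi-likelihood test, Benjamini-Hochberg adjusted p = 1.34e-08). KLRC3, which encodes NKG2E, had 2.06 and KLRC4, which encodes NKG2F, 2.27. The readthrough gene KLRC4-KLRK1, with 2.42, contains exons of KLRC4 and KLRK1, and KLRC2 shares exons with ENSG00000255641 and KLRC1. KLRC2 and KLRC3 are close paralogs, so their counts can include reads of each other. KLRG1, named after its values were seen, had 0.81.

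Apart from KLRG1, these genes lie side by side on chromosome 12. In the order of GENCODE 29, KLRD1, KLRK1, KLRC4-KLRK1, KLRC4, KLRC3, ENSG00000255641 and KLRC2 are consecutive among the genes tested, and all were higher. KLRD1, which encodes CD94, the partner of the NKG2 proteins, was named after its values were seen and had the smallest rise of them, from 0.593 ± 0.0942 to 1.01 ± 0.232 CPM. Its log2 fold change was 0.73 (edgeR's quasi-likelihood test, Benjamini-Hochberg adjusted p = 0.00892), with all 5 knockdown samples higher. The 5 tested genes after KLRC2 were not called, with log2 fold changes from -0.37 to 0.26. On the other side GABARAPL1, OLR1 and CLEC2B, an activation-induced lectin (0.10), were not called. CLEC7A, the β-glucan receptor dectin-1, fell from 1.67 ± 0.329 to 0.482 ± 0.275 CPM (log2 fold change -1.78, no overlap). GABARAPL1, OLR1 and CLEC7A were named after their values were seen. Another run on chromosome 12 held OASL (1.15), P2RX7 (3.55) and P2RX4 (0.76), whose next neighbours on either side were not called. P2RX7 (ENSG00000089041), an ATP-gated channel, was at 0.594, 0.775, 0.650, 0.165 and 1.19 CPM in untreated samples 1 to 5 and 7.71, 7.31, 7.77, 8.43 and 7.12 CPM in knockdown samples 1 to 5. Its groups did not overlap, with a log2 fold change of 3.55 (SE 0.205, edgeR's quasi-likelihood test, Benjamini-Hochberg adjusted p = 3.73e-11). Its paralog P2RX4, named after its values were seen, rose from 33.3 ± 2.47 to 56.4 ± 2.79 CPM, without overlap. Medians over 25 neighbouring genes stayed between -0.36 and 0.36 on every chromosome.

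Interferon-stimulated genes, many of which encode antiviral factors, were often called higher. Of 36 tested, 9 were higher and 1 lower, or 25% and 2.78% against 5.18% and 7.53% of all genes tested. Their median log2 fold change was 0.20. SAMD9L, an antiviral factor, was at 17.3, 18.8, 18.3, 14.5 and 25.5 CPM in untreated samples 1 to 5 and 44.8, 46.1, 44.3, 53.8 and 47.9 CPM in knockdown samples 1 to 5. The knockdown samples were all higher, with a log2 fold change of 1.33 (SE 0.106, edgeR's quasi-likelihood test, Benjamini-Hochberg adjusted p = 4.03e-09). IFI44 rose from 1.96 ± 0.292 to 5.37 ± 1.17 CPM, with a log2 fold change of 1.47 (SE 0.136, edgeR's quasi-likelihood test, Benjamini-Hochberg adjusted p = 3.72e-08) and no overlap, OASL from 6.49 ± 1.43 to 14.5 ± 0.720 CPM and BST2, which tethers virus particles to the membrane, from 0.744 ± 0.139 to 1.75 ± 0.315 CPM, both also without overlap. LGALS9, the lectin galectin-9, fell, with a log2 fold change of -0.75. In antigen presentation 3 of 21 tested genes were higher and 0 lower (0 with DESeq2, 1 at an unadjusted edgeR p under 0.05 with any fold), with a median of 0.24. Without untreated sample 5, 1 was higher and the median was 0.11. PSMB9, an immunoproteasome subunit, rose from 11.2 ± 1.85 to 17.7 ± 0.687 CPM (log2 fold change 0.66, no overlap), and its exons overlap PSMB8 on the other strand. The class I gene HLA-F (0.54) was higher in all 5 knockdown samples and was not called without untreated sample 5 (0.41). HLA-B had 0.34 and was not called. HLA genes are similar enough to share reads.

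Several genes of the extracellular matrix fell. Of 31 tested, 10 were lower and 0 higher (0 with DESeq2, 3 at an unadjusted edgeR p under 0.05 with any fold), with a median log2 fold change of -0.24. The share lower was 32.3%, against 7.53% of all genes tested. Without untreated sample 5, 1 was higher. THBS1 (ENSG00000137801), the matrix glycoprotein thrombospondin-1, was at 413, 351, 435, 322 and 455 CPM in untreated samples 1 to 5 and 92.6, 93, 85.6, 83 and 77.3 CPM in knockdown samples 1 to 5. Every knockdown sample was lower, and the log2 fold change was -2.19 (SE 0.097, edgeR's quasi-likelihood test, Benjamini-Hochberg adjusted p = 6.12e-13). Its exons overlap FSIP1 on the other strand. COL1A1, the main collagen of bone, was at 1901, 1838, 2020.1, 1733 and 2375 CPM in untreated samples 1 to 5 and 657, 651, 601, 598 and 576 CPM in knockdown samples 1 to 5. It fell in all 5 knockdown samples, with a log2 fold change of -1.68 (SE 0.072, edgeR's quasi-likelihood test, Benjamini-Hochberg adjusted p = 4.45e-13). LAMA3, a laminin chain of basement membranes, fell from 13.8 ± 2.81 to 2.53 ± 0.315 CPM, with a log2 fold change of -2.44 (SE 0.131, edgeR's quasi-likelihood test, Benjamini-Hochberg adjusted p = 1.37e-11) and no overlap. COL8A1 had -1.22 and COL6A3 -0.88. Of the keratins, which form intermediate filaments, KRT14 fell from 4.82 ± 0.802 to 0.491 ± 0.0938 CPM, with a log2 fold change of -3.27 (SE 0.184, edgeR's quasi-likelihood test, Benjamini-Hochberg adjusted p = 2.49e-11) and no overlap, and KRT75 fell from 9.10 ± 1.31 to 1.04 ± 0.221 CPM (-3.12). KRT5, the partner of KRT14, was counted 9 times with the knockdown and 70 times in untreated cells, 7.25 times lower after scaling by raw library size, without TMM factors (95% counting interval 3.61 to 16.5). KRT8 had -0.71, and KRT18, its partner in simple epithelia, -0.09, not called. KRT8 and KRT18 overlap on opposite strands.

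Genes of the cell cycle stood lower as a group. Of 45 tested, 10 were called lower and 0 higher (0 with DESeq2, 0 at an unadjusted edgeR p under 0.05 with any fold). The share lower was 22.2%, against 7.53% of all genes tested. All 45 log2 fold changes were under 0, and their median was -0.37. Of the 45, 0 were above 0 under any other scaling or filter tried or without any single sample, whereas 15 were above 0 with the lane as a factor. MYBL2, a transcription factor of the S and G2 phases, fell from 291 ± 33.5 to 159 ± 7.22 CPM, with a log2 fold change of -0.87 (SE 0.066, edgeR's quasi-likelihood test, Benjamini-Hochberg adjusted p = 2.17e-09) and no overlap. FOXM1, which drives mitotic genes, was at 358, 326, 367, 323 and 637 CPM in untreated samples 1 to 5 and 245, 246, 231, 230.2 and 232 CPM in knockdown samples 1 to 5. All knockdown samples were lower, and the log2 fold change was -0.76 (SE 0.127, edgeR's quasi-likelihood test, Benjamini-Hochberg adjusted p = 6.66e-05). It overlaps ITFG2 on the other strand. The mitotic kinase PLK1 fell from 149 ± 27.6 to 96.3 ± 3.61 CPM (log2 fold change -0.63, no overlap, with exons overlapping ERN2 on the other strand) and BIRC5, survivin, from 211 ± 35.6 to 139.7 ± 5.76 CPM (-0.59, no overlap). The proliferation marker MKI67 was at 657, 768, 801, 434 and 1817 CPM in untreated samples 1 to 5 and 461, 501, 466, 531 and 471 CPM in knockdown samples 1 to 5. Untreated sample 5 was far above the others and the groups overlapped, so that its log2 fold change of -0.88 (edgeR's quasi-likelihood test, Benjamini-Hochberg adjusted p = 0.00380) became -0.47 without that sample and was not called. TOP2A, the topoisomerase of dividing cells, had -0.21 and was not called.

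Of 27 tested p53 targets 3 were higher (GDF15, GADD45A and RRM2B) and 0 lower (0 with DESeq2, 2 at an unadjusted edgeR p under 0.05 with any fold), with a median of 0.21. The share higher was 11.1%, against 5.18% of all genes tested. GDF15, a stress cytokine of the TGF-β family, was at 2.43, 4.32, 2.63, 3.66 and 3.62 CPM in untreated samples 1 to 5 and 8.92, 8.73, 11, 10.6 and 8.96 CPM in knockdown samples 1 to 5. All knockdown samples were higher, and the log2 fold change was 1.54 (SE 0.169, edgeR's quasi-likelihood test, Benjamini-Hochberg adjusted p = 3.79e-07). GADD45A, a growth arrest gene, rose from 49.1 ± 6.53 to 89.9 ± 7.43 CPM, with a log2 fold change of 0.87 (SE 0.076, edgeR's quasi-likelihood test, Benjamini-Hochberg adjusted p = 1.45e-08) and no overlap. RRM2B, the p53-induced ribonucleotide reductase subunit, had 0.53, or 0.50 without untreated sample 4 and 0.43 without untreated sample 5, and was not called in either case. CDKN1A, which encodes the cell cycle inhibitor p21, was at 239, 217, 229, 242 and 199.9 CPM in untreated samples 1 to 5 and 271, 267, 272, 243 and 249 CPM in knockdown samples 1 to 5. The knockdown samples were all higher, but the log2 fold change of 0.21 stayed under the threshold, as did that of the cyclin CCNG1 (0.33). Of 30 tested genes of the integrated stress response, 2 were higher (GDF15 and the pseudokinase TRIB3, 0.69) and 2 lower (ATF3 and the amino acid carrier SLC7A5, -0.51). Each share was 6.67%, near the 5.18% and 7.53% of all genes tested, and the median was 0.12. That median was -0.02 without untreated sample 1, 0.34 without untreated sample 2 (with 4 genes higher), 0.08 without untreated sample 3, 0.07 without untreated sample 4, -0.01 without untreated sample 5, 0.08 without knockdown sample 5 and -0.06 without untreated samples 4 and 5. SLC7A5 lost its call without untreated sample 2 (-0.33), untreated sample 3 (-0.48) or knockdown sample 4 (-0.47), and with upper-quartile factors (-0.48) or library size alone (-0.45). The chaperone HSPA5 had 0.39 and was not called. Of 30 tested immediate early genes 7 were lower and 0 higher (0 with DESeq2, 3 at an unadjusted edgeR p under 0.05 with any fold), with a median of -0.28. Leaving out untreated sample 5 gave 3 lower genes and a median of -0.18. The 7 include the nuclear receptor NR4A1 (-0.74) and CTGF, a matricellular growth factor (-0.74), both without overlap. Among 31 tested regulators of apoptosis 1 was higher, CASP10 (0.54, or 0.49 and not called without untreated sample 5), and 3 were lower, BIRC5, BIRC3 and the death-promoting BIK (-1.03), with a median of 0.07 (0.02 without untreated sample 5). The shares higher and lower, 3.23% and 9.68%, lay near the 5.18% and 7.53% of all genes tested. Without untreated sample 1 there were 2 higher genes, and without untreated sample 2 there were 3.

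**Figure D4:**
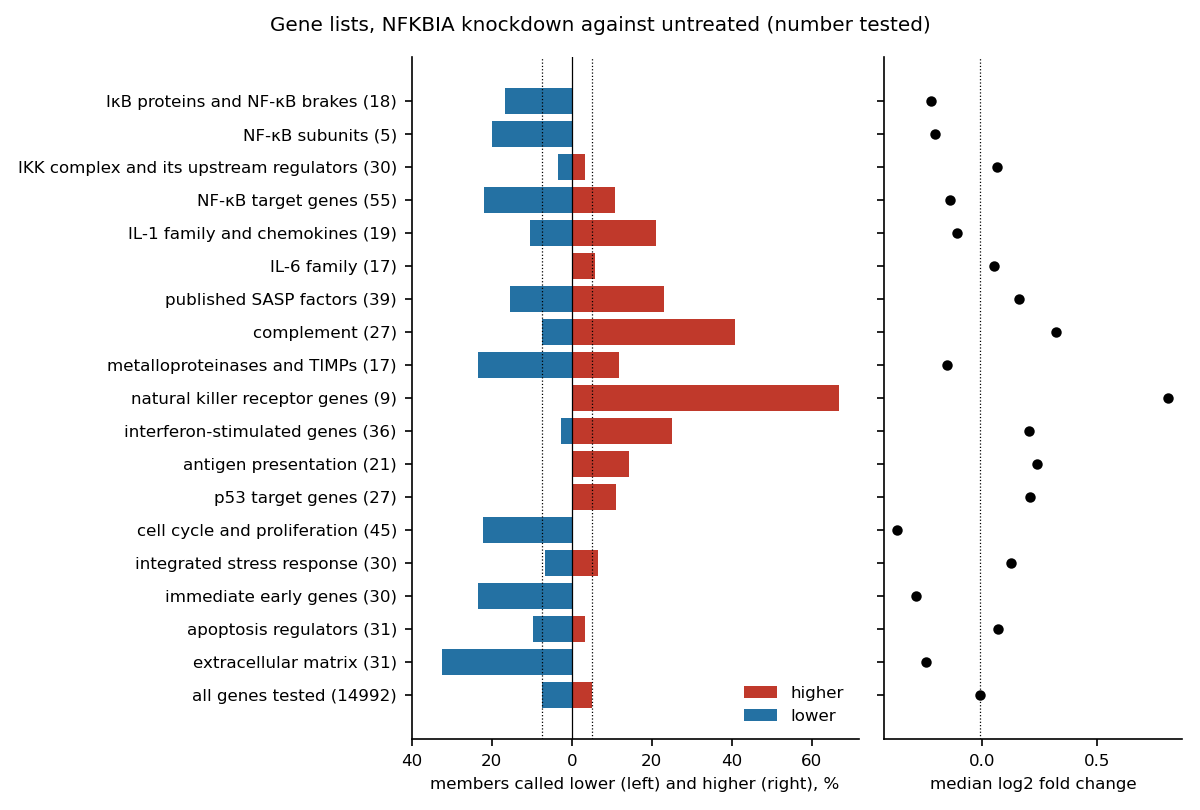
For each gene list, the percent of tested genes called higher and lower with NFKBIA knockdown (left) and the median log2 fold change against untreated cells (right); dotted lines mark all genes tested, 5.18% higher and 7.53% lower. The largest share of higher genes is 66.7%, for the natural killer receptor genes, followed by 40.7% for complement. Apart from the published SASP factors, the lists were written with earlier results of these data known. Some members of both lists have close paralogs or share exons with other genes.

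Many of the largest changes lay outside these lists. SCRG1, a secreted protein of mesenchymal cells, was nearly absent from untreated cells, with 5 counts over 5 samples, against 215 with the knockdown. The ratio, scaled by raw library size without TMM factors, was 46.1 (95% counting interval 19.5 to 143.5), and the fitted log2 fold change of 5.32 became 6.17 without untreated sample 4. ENOX1, a cell surface oxidase, rose from 0.567 ± 0.253 to 7.52 ± 0.645 CPM (log2 fold change 3.71), and KHDRBS2, an RNA-binding protein, from 0.455 ± 0.131 to 5.54 ± 0.941 CPM (3.60). PRKG1, a cGMP-dependent protein kinase, was at 8.34, 8.52, 8.06, 6.13 and 5.61 CPM in untreated samples 1 to 5 and 49.6, 46.4, 52.8, 55.9 and 54.8 CPM in knockdown samples 1 to 5. Its groups lay far apart, with a log2 fold change of 2.81 (SE 0.093, edgeR's quasi-likelihood test, Benjamini-Hochberg adjusted p = 6.89e-15). SPX, the peptide hormone spexin, rose from 2.16 ± 1.27 to 18.6 ± 3.16 CPM (3.08), and untreated sample 2 was high among the untreated samples. The largest falls included CCDC67, a centriole gene (from 8.30 ± 4.46 to 0.509 ± 0.106 CPM, log2 fold change -3.97), and the dehydrogenase DHRS2 (from 16.9 ± 2.33 to 1.61 ± 0.147 CPM, -3.39). HTR2A, a serotonin receptor, had -3.31, SLCO2A1, a prostaglandin transporter, -2.58, LRRC32, which presents latent TGF-β, -2.91, and MYOCD, a coactivator of smooth muscle genes, -2.46. The groups overlapped for none of these 11 genes.

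Among abundant transcripts, LOXL4, a lysyl oxidase that crosslinks collagen, rose from 469 ± 62.3 to 1052 ± 14.8 CPM, with a log2 fold change of 1.16 (SE 0.069, edgeR's quasi-likelihood test, Benjamini-Hochberg adjusted p = 5.19e-11) and no overlap. The actin gene ACTB fell from 5968 ± 593 to 3876 ± 177 CPM, with a log2 fold change of -0.62 (SE 0.064, edgeR's quasi-likelihood test, Benjamini-Hochberg adjusted p = 1.45e-07) and no overlap. PFN1, which encodes the actin-binding protein profilin, had -0.63 with overlapping groups. It was not called without untreated sample 5 (-0.27) or in a fit of only the groups compared (-0.63). Its exons overlap ENO3 on the other strand.

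The labelled cell type was checked against markers. The osteoblast and osteosarcoma markers summed to 6182 to 7983 CPM in the untreated samples and to 5116 to 5434 with the knockdown, with vimentin (VIM) the most abundant per length in untreated cells. Of 11 tested, 3 were lower (COL1A1, TNFRSF11B and ALPL) and 0 higher (0 with DESeq2, 1 at an unadjusted edgeR p under 0.05 with any fold), with a median of -0.18, and 1 was higher without untreated sample 2, untreated sample 5 or any 1 of knockdown samples 1 to 3. ALPL, alkaline phosphatase of bone, was at 21, 18.1, 20.6, 26.2 and 48.4 CPM in untreated samples 1 to 5 and 5.80, 7.19, 6.85, 7.44 and 6.94 CPM in knockdown samples 1 to 5. All knockdown samples were lower, and the log2 fold change was -1.96 (SE 0.201, edgeR's quasi-likelihood test, Benjamini-Hochberg adjusted p = 1.47e-07). Markers of lymphoid and NK cells summed to 156 to 302 CPM in the untreated and 172 to 181 CPM in the knockdown samples, and most of that was the adhesion molecule NCAM1 (-0.32, not called). Of 6 tested, 2 were higher and 1 lower (2 lower without any 1 of untreated samples 1 to 4), with a median of 0.36. CD3D, a T cell receptor chain, rose from 1.07 ± 0.183 to 3.48 ± 0.511 CPM (log2 fold change 1.71), whereas PTPRC, which encodes CD45, fell from 1.05 ± 0.331 to 0.346 ± 0.137 CPM (-1.52). The groups overlapped for neither of these 2. CD3E, CD2 and NKG7 were at 0 in every knockdown sample, beside the raised natural killer receptor genes. Without untreated sample 5, which held CD3E and GZMB, the log2 fold changes were 1.73 for CD3D, -1.38 for PTPRC and 2.89 for KLRC2.

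Myeloid markers summed to 4.15 to 10.9 CPM in untreated and 4.64 to 5.62 CPM in knockdown samples, with CD68 the most abundant per length and TYROBP at 0. Of 5 tested, 1 was lower (ITGAM, an integrin chain, -0.76) and 0 higher (0 with DESeq2, 0 at an unadjusted edgeR p under 0.05 with any fold), with a median of -0.02. It was 0.18 without untreated sample 5 and under 0, down to -0.17, without any 1 of the others, and above 0 with upper-quartile factors, library size alone or the replicate block. Epithelial markers summed to 648 to 1129 and 661 to 732 CPM, mostly KRT18. Of 9 tested, 1 was higher (CLDN4, a tight junction protein, 1.06) and 4 lower (KRT8, CDH1, KRT5 and KRT14), with a median of -0.17 (-0.08 without untreated sample 4). E-cadherin (CDH1) had -2.01. Endothelial markers summed to 15.2 to 21.2 and 16.9 to 19 CPM, with TEK the most abundant per length and EMCN at 0, and of 3 tested 0 were called in either direction, also 0 with DESeq2 or at an unadjusted edgeR p under 0.05 with any fold. Their median was -0.08, or -0.05 without untreated sample 1, -0.17 without untreated sample 4, 0.02 without untreated sample 5 (with 1 gene lower) and -0.03 without knockdown sample 1. Neuronal markers summed to 212 to 251 and 323 to 341 CPM, the latter above all untreated samples. Of 7 tested, 2 were higher and 0 lower (0 with DESeq2, 3 at an unadjusted edgeR p under 0.05 with any fold), with a median of -0.04. The median was -0.07 without untreated sample 4 or knockdown sample 1 and -0.01 without knockdown sample 2, and it was above 0 with library size alone, with a stricter filter on counts and in a fit of only the groups compared. Without any 1 of untreated samples 1, 3 and 4, 1 gene was lower. The higher genes were TUBB3, a neuronal tubulin (from 132 ± 20.6 to 203 ± 8.72 CPM, log2 fold change 0.62), and ENO2, a neuronal enolase (0.58), both without overlap. TUBB3 shares exons with ENSG00000198211 on the same strand. The part of these markers in the other results was not tested.

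The knockdown also differed from the state 7 days after irradiation. The same fit called 1483 genes higher with the knockdown than at 7 days (9.89% of those tested) and 2374 lower (15.8%). This contrast compares no untreated mean. The untreated samples are in the fit, however, and their spread enters the p-values and calls. NFKBIA was lower with the knockdown, at 12.2 ± 0.667 against 30.8 ± 1.59 CPM, a log2 difference of -1.34 (edgeR's quasi-likelihood test, Benjamini-Hochberg adjusted p = 1.15e-09). Many inflammatory genes were lower with the knockdown as well. Of the 55 NF-κB targets 2 were higher and 34 lower than at 7 days, with a median difference of -0.80, and of the 39 published SASP factors 3 were higher and 21 lower, with a median of -0.53. CXCL8 stood at 6.77 ± 0.919 against 55.9 ± 8.45 CPM, a difference of -3.04 (edgeR's quasi-likelihood test, Benjamini-Hochberg adjusted p = 1.05e-13). IL1A, which rose with the knockdown, stood at 2.19 ± 0.590 against 9.71 ± 1.12 CPM (-2.16), and BIRC3, which fell with it, at 19.3 ± 1.78 against 101 ± 5.75 CPM (-2.39). CCL20 (-1.78), IL6 (-2.77) and TNFAIP3 (-1.06) were lower too. GDF15 differed by -2.32 and CDKN1A by -1.65, and 26 of the 27 p53 targets were lower than at 7 days, with a median of -0.88.

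Other genes were higher with the knockdown than at 7 days. MMP13 stood at 48 ± 4.91 against 3.17 ± 0.438 CPM, a difference of 3.91 (edgeR's quasi-likelihood test, Benjamini-Hochberg adjusted p = 5.63e-16), and KLRC2 at 24.9 ± 3.57 against 2.78 ± 0.726 CPM (3.15). CXCL14 fell with the knockdown and was lower still at 7 days (0.835 ± 0.138 CPM), with a difference of 3.92. LOXL4 differed by 2.36. Of the 45 cell cycle genes 28 were higher with the knockdown and 1 lower, with a median of 0.65, among them PLK1 (0.94) and TOP2A (0.61).

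**Figure D5:**
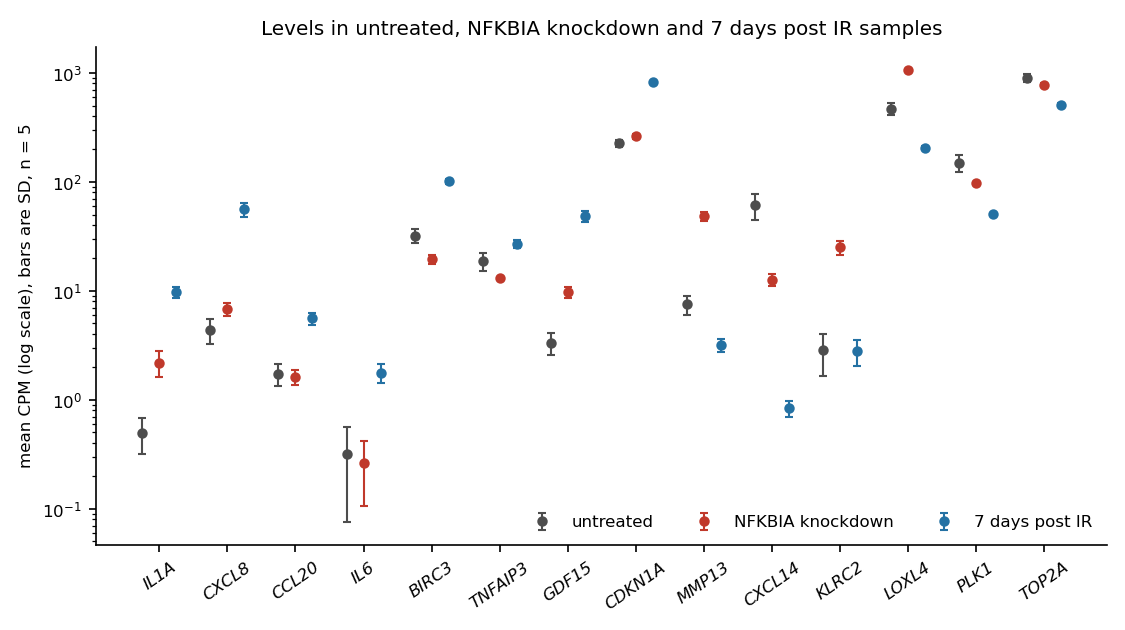
CPM (log axis) of 14 genes in untreated, NFKBIA knockdown and 7 days post IR samples, as mean and SD of 5 samples. CXCL8 stands at 6.77 ± 0.919 CPM with the knockdown and 55.9 ± 8.45 CPM at 7 days, MMP13 at 48 ± 4.91 and 3.17 ± 0.438 CPM.

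The sequencing lane was also fitted as a factor. In that fit, untreated and knockdown samples are linked only through untreated sample 5, the irradiated samples of lanes 3 to 5 and knockdown sample 1. NFKBIA then had a log2 fold change of -1.82. Of the 99 genes named here that were called, 30 were no longer called: ATF3, BIK, BIRC5, BST2, C5AR2, CASP10, CCL26, CFP, CLDN4, CLEC7A, CTGF, CXCL8, EREG, IFI44, IL6R, ITGAM, KLRD1, KRT5, KRT8, LGALS9, MMP17, MMP24, MMP7, PDLIM2, PSMB9, RELB, SCRG1, SLC7A5, TNFAIP2 and TNFRSF1B. Among these, the sign turned for RELB (0.22), TNFRSF1B (-0.19) and CFP (0.88). Conversely NFKBIZ, BCL3, RELA, REL, HLA-B, CCNG1, HSPA5 and NCAM1 were called in that fit alone among those with all samples. The median log2 fold change turned sign for the NF-κB subunits (0.07), the interleukin-1 family and chemokines (0.03) and the lymphoid markers (-0.04). The part of the lane in any of these differences cannot be told apart from the groups.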

How the data were processed

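The authors deposited a table of read counts, whole numbers for 20314 genes in 20 samples, of which 1217 genes had 0 counts in all samples. The submitters' processing notes name bcl2fastq, Trimmomatic, STAR 2.4.2a and hg19. The libraries were stranded. The counting tool, the annotation and whether the counting used the strand are not given in the sources used here. Of 1679 genes without a symbol, 888 were given one by their identifier.

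Counts were fitted in R 4.3.3 with edgeR 4.0.16 and limma 3.58.1: filterByExpr with a minimum count of 10 (14992 genes kept), TMM factors, and 1 quasi-likelihood model in which each of the 4 groups had its own term. Benjamini-Hochberg adjustment ran over all genes tested. The call threshold was 0.05 for the adjusted p together with 0.5 for the absolute log2 fold change. Standard errors (SE) came from the F statistic. Log2 CPM for the exact permutation tests used a prior count of 2. Alternatives were DESeq2 1.42.0, other scaling and filters, only the groups compared, a replicate block and the lane as a factor. Each untreated, knockdown or 7 days sample was also left out in turn, for the contrasts that use its group. The fit without untreated samples 4 and 5 was chosen after seeing the data. The code was tested on simulated data. The members and gene lists were chosen with earlier results of these data known. Named genes were, by rule, the brakes and subunits, the 15 largest changes in each direction without overlap and at 1 CPM or more, up to 4 called genes a direction and the most abundant gene of each list, genes the paper names, and the 10 most abundant called genes a direction, 165 in all. Which of them are printed was decided when writing, and some members of the lists are not reported here by name. A further list, 13 mitochondrially encoded genes, had 0 members in the table. Exon overlaps and gene order came from GENCODE 29 and promoters from RefSeq. Ratios of pooled counts and their counting intervals use the summed raw library sizes, without TMM factors, and cover counting error only. Tables and figures were made with Python 3.11.15, pandas 2.3.3, numpy 2.4.6, scipy 1.17.1 and matplotlib 3.10.9. Mean CPM per kb divides by exon length.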

Additional observations from a re-analysis of the deposited data

Results flagged for a closer look

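For 24 of 248 sets of 5 values, the named genes in either group, 1 sample lay farther from the other 4 than Dixon's critical value of 0.71 for the gap over the range allows. Chance flags about 1 in 20 groups, and 16 of the 24 values came from untreated sample 5. Untreated sample 5 was far above the other untreated samples for BCL3 at 69 CPM (others 28 to 30.4), TNFAIP3 at 25 CPM (others 16.3 to 17.9), RELA at 216 CPM (others 115 to 121), TNFRSF1B at 0.856 CPM (others 0.237 to 0.330), ALPL at 48.4 CPM (others 18.1 to 26.2) and MKI67 at 1817 CPM (others 434 to 801). The same held for FOXM1 at 637 CPM (others 323 to 367), HTR2A at 12.3 CPM (others 6.89 to 7.35), SLCO2A1 at 67.5 CPM (others 29.6 to 40.1), MYOCD at 2.95 CPM (others 1.09 to 1.49), PFN1 at 1563 CPM (others 524 to 771) and PTPRC at 1.62 CPM (others 0.824 to 1.05). It was far below them for CFB at 2.04 CPM (others 3.30 to 3.76), C7 at 0.571 CPM (others 0.824 to 0.891), KLRD1 at 0.428 CPM (others 0.609 to 0.653) and LOXL4 at 359.5 CPM (others 482 to 512). Untreated sample 2 was high for KLRC4-KLRK1 at 1.60 CPM (others 0.976 to 1.12) and SPX at 4.40 CPM (others 1.40 to 1.94).

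Knockdown sample 4 was far above the other knockdown samples for REL at 41.8 CPM (others 33.9 to 35) and OASL at 15.8 CPM (others 14.1 to 14.4). Knockdown sample 5 was high for C4A at 4.57 CPM (others 3.58 to 3.85), HLA-F at 19.7 CPM (others 18.1 to 18.4) and GADD45A at 103 CPM (others 83.7 to 88.3), and low for MYOCD at 0.106 CPM (others 0.293 to 0.334).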

How the results depend on the processing

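Of the 99 named genes that were called, 63 kept their direction and their side of the threshold under every alternative in which they could be tested, and 88 did so with the lane fit set aside. With the replicate block, which pairs samples by number, 777 genes were higher and 1072 lower, and NFKBIA had -1.34. RELB (-0.50) and SLC7A5 (-0.48) were then not called.

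With the sequencing lane as a factor, 1994 genes were called higher and 2094 lower, and 30 of the named genes lost their call. Of these, RELB (0.22), TNFRSF1B (-0.19) and CFP (0.88) changed sign. The cause was not tested, and this fit rests on untreated sample 5 and knockdown sample 1.

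Under the other scalings, filters and DESeq2 the counts ranged from 561 to 971 higher and from 924 to 1264 lower. With each untreated or knockdown library left out in turn, they ranged from 723 to 913 higher and from 1039 to 1344 lower. The log2 fold change of NFKBIA then ranged from -1.44 to -1.25. Against 7 days post IR, each knockdown or 7 days sample was left out in turn. These fits gave 1464 to 1580 higher and 2275 to 2350 lower. With all samples these counts were 1483 and 2374, the latter above that range. Without untreated samples 4 and 5, chosen after seeing the data, 724 were higher and 1064 lower. Depth limits genes at or under 3 counts in a sample, such as SCRG1, C5AR2 and KRT5, whose ratios carry wide counting intervals.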
